A study of Mus musculus with 18 samples.

Results

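The 9 genes Gpam, Gpat3, Gpat4, Agpat2, Agpat3, Lpin1, Lpin2, Dgat1 and Dgat2 encode enzymes of triglyceride synthesis. They were found by their mouse gene symbol in the table of counts, where each symbol had 1 of the 54347 rows. The libraries are poly-A RNA-seq of fat from 6 mice of the C57BL/6N-{delta}Gm15551 line, aged 12 weeks and fed a chow diet. Brown fat came from the interscapular depot (iBAT), and white fat from the inguinal (iWAT) and epididymal (eWAT) depots. In each tissue, 3 libraries came from wild type mice (wt) and 3 from mice with a deletion that takes in exon 1 of Gm15551, a gene for a long noncoding RNA (knockout, ko), made with CRISPR/Cas9 on the C57BL/6N background in a line backcrossed before use. The deletion is not limited to fat. The sex of the mice is not given in the labels, but each mouse gave epididymal fat, a depot of males. Each mouse gave 1 library per tissue, and the 18 libraries form 6 groups of 3. The design compares the genotypes in each tissue and the tissues with each other.

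Triglyceride is built from glycerol 3-phosphate by the addition of fatty acids in 4 enzymatic steps. A glycerol-3-phosphate acyltransferase (GPAT) adds the first fatty acid, a 1-acylglycerol-3-phosphate acyltransferase (AGPAT) adds the second and forms phosphatidic acid, a lipin removes the phosphate to give diacylglycerol, and a diacylglycerol acyltransferase (DGAT) adds the last. Gpam encodes the GPAT of the outer mitochondrial membrane, and Gpat3 and Gpat4 encode GPATs of the endoplasmic reticulum. Each step has more than 1 enzyme, and brown and white adipocytes both run the pathway, white ones mainly to store fat and brown ones also to refill droplets that are burnt for heat.

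Expression is given in CPM, counts per 1000000 counts of the library, with library totals scaled by the trimmed mean of M values (TMM). Total counts per library were between 14997901 and 34389586, and the lowest count of any of the 9 genes in any library was 155. Mitochondrial transcripts made up 22.9% to 27.0% of counts in iBAT and 3.77% to 9.64% in the white tissues. Gm15551 had 40 to 316 counts in each wild type library and 0 to 4 in each knockout library, as the labels say. Brown adipocyte genes (Ucp1, Cidea, Dio2, Ppara and Elovl3) summed to 5889 to 11122 CPM in iBAT, 11.9 to 201 CPM in iWAT and 3.47 to 7.71 CPM in eWAT. In 4 white libraries, genes of neighbouring tissue stood out. Lymph node genes (Cd79a, Ms4a1, Cr2, Cd3e, Cd3g and Ccr7) summed to 565 CPM in iWAT wt replicate 3 and 223 CPM in iWAT ko replicate 2, and to at most 13.4 CPM in the other 16 libraries. The sum of 7 skeletal muscle genes was 4231 CPM in iWAT ko replicate 1 and at most 21.6 CPM elsewhere, and the sum of 6 epididymis genes was 4823 CPM in eWAT ko replicate 3 and at most 16.4 CPM elsewhere. The sum of 7 adipocyte genes (Adipoq, Plin1, Fabp4, Lipe, Cidec, Lep and Retn) was 8225, 12000.3 and 10759 CPM in iWAT wt replicate 3, iWAT ko replicate 2 and eWAT ko replicate 3, and 16462 to 24749 CPM in the other 15 libraries. In bulk tissue, fewer cells of a type and less RNA per cell cannot be told apart.

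Of the 9 enzymes, 5 were higher in iBAT than in iWAT, 1 was lower and 3 did not pass the test (edgeR quasi-likelihood F-test, Benjamini-Hochberg adjusted p under 0.05 over all 18728 genes tested). The same 5 were higher and the same 1 lower in iBAT than in eWAT. The 5 were Gpam, Gpat4, Agpat2, Agpat3 and Lpin1, and the lower one was Gpat3. The share of all genes called was 54.3% for iBAT against iWAT (24.0% higher and 30.3% lower in iBAT) and 54.6% for iBAT against eWAT (24.4% higher and 30.2% lower), so that a count of 6 of 9 is not far from that of genes in general. The 6 iBAT libraries did not overlap the 6 white libraries for 5 of the 9 enzymes against iWAT and 6 against eWAT, compared with 34.6% and 37.3% of all genes. The median log2 fold change of the 9 enzymes was 1.02 against iWAT and 1.10 against eWAT, beside -0.15 and -0.17 over all genes tested. The counts called were the same without the 4 libraries named above. With library totals in place of TMM, the median of all genes moved to -0.95 and -1.04, and 4 enzymes were higher and 3 lower against iWAT and 3 higher and 3 lower against eWAT, where 76.0% and 78.7% of all genes were called in either direction. Between iWAT and eWAT, 0 of the 9 were called, where 10.2% of all genes were (5.70% higher and 4.50% lower in iWAT).

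**Figure D1:**
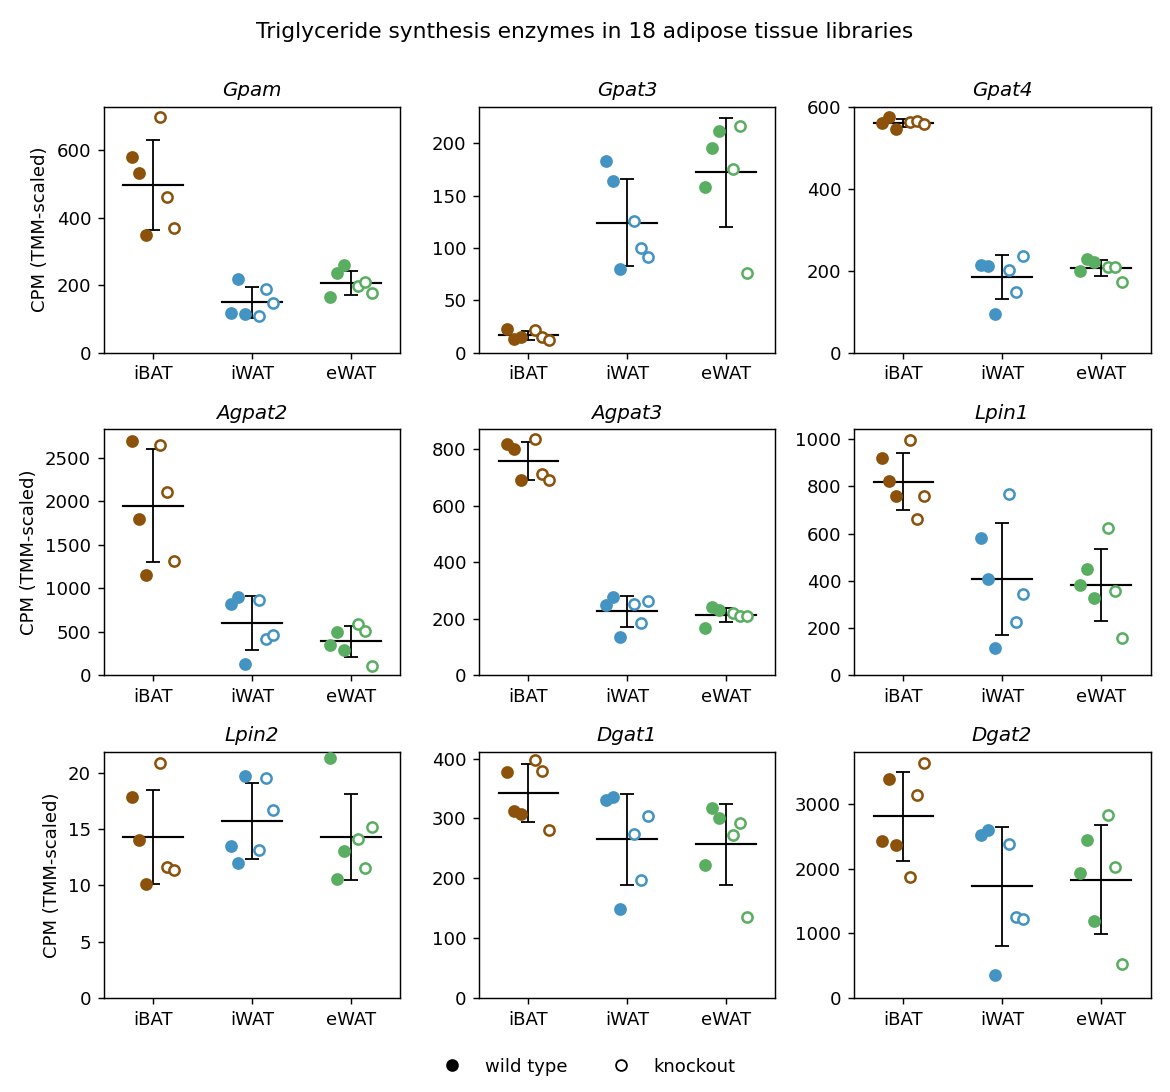
CPM of each enzyme (vertical axis, linear, a scale of its own per panel) in every library of iBAT, iWAT and eWAT. Filled points are wild type and open points knockout libraries, the long line is the mean and the bars are the SD over 6 libraries. Gpat3 has its 6 iBAT libraries at 12.0 to 22.5 CPM, below every white library, while Gpam, Gpat4, Agpat2 and Agpat3 have all iBAT libraries above all white ones.

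The first step showed 2 GPAT genes up and 1 down in brown fat. Gpat3, a GPAT of the endoplasmic reticulum, lies on chromosome 5 from 100845713 to 100899102 on the plus strand (GRCm38, ENSMUSG00000029314.14). In iBAT it had 22.5, 12.6 and 14.99 CPM in wild type replicates 1 to 3 and 21.7, 15.1 and 12.0 CPM in knockout replicates 1 to 3. In iWAT the values were 183, 164 and 80.4 CPM in wild type mice and 126, 100.2 and 91.4 CPM in knockout. In eWAT they were 159, 195 and 212 CPM in wild type mice and 176, 217 and 76.1 CPM in knockout. No iBAT library reached a white one, the lowest white library being eWAT ko replicate 3. Gpat3 was 7.46-fold lower in iBAT than in iWAT (log2 fold change -2.90 ± 0.27, SE, adjusted p = 1.59e-07 by edgeR) and 10.4-fold lower than in eWAT (-3.38 ± 0.27, adjusted p = 2.40e-08). Without the 4 libraries the differences were -3.11 and -3.53, and with library totals only they were -3.69 and -4.24. The gene overlaps the antisense gene 4930458D05Rik and, on its own strand, the gene model Gm42987. Whether counting used strand is not given in the sources used here, and the counts may hold reads of these genes.

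Gpam, at chromosome 19, 55067268 to 55127238, minus strand (ENSMUSG00000024978.11), moved the other way. Its iBAT libraries held 579, 533 and 348 CPM in wild type mice and 698, 460.1 and 369 CPM in knockout. The 6 iWAT libraries ranged from 109 to 220 CPM with a median of 132, and the 6 eWAT libraries from 164 to 261 CPM with a median of 202. The ranges did not overlap between iBAT and either white tissue. Gpam was 3.34-fold higher in iBAT than in iWAT (log2 fold change 1.74 ± 0.21, adjusted p = 3.91e-06 by edgeR) and 2.41-fold higher than in eWAT (1.27 ± 0.21, adjusted p = 7.90e-05). Over 35 alternatives its adjusted p against eWAT ran from 1.26e-08 to 0.0588, the last with library totals only, where the difference was 0.39. With library totals only the log2 difference from iWAT was 0.92. Gpam overlaps the antisense gene AC110206.1, and without the strand setting known the counts may hold reads of that gene.

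Gpat4, at chromosome 8, 23171265 to 23208346, minus strand (ENSMUSG00000031545.6), was the steadiest of the 9 in brown fat. Its iBAT libraries held 563, 577 and 546 CPM in wild type mice and 564, 566 and 558 CPM in knockout, a mean of 562 ± 10.2 CPM (SD, n = 6). In iWAT they ranged from 95.4 to 237 CPM with a median of 208, and in eWAT from 173 to 229 CPM with a median of 208. Brown and white ranges did not overlap, and the lowest white library was iWAT wt replicate 3. The fold difference was 3.03 against iWAT (log2 1.60 ± 0.17, adjusted p = 7.36e-07 by edgeR) and 2.72 against eWAT (1.44 ± 0.17, adjusted p = 1.76e-06). With library totals only the log2 differences were smaller, at 0.83 and 0.58.

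Levels of different genes were compared only per kilobase of exon (merged exons, GENCODE M21). On that scale the sum of the 3 GPAT transcripts was 164 ± 21.8 CPM per kilobase in iBAT, 85.6 ± 19.96 in iWAT and 111 ± 21.6 in eWAT (SD, n = 6 each). Gpat3 made up 2.86% ± 0.549 of that sum in iBAT, 41.1% ± 6.83 in iWAT and 43.3% ± 7.12 in eWAT. Its share was at most 3.63% in any brown library and at least 29.3% in any white one. Gpat4 held 52.2% ± 6.30 and Gpam 45.0% ± 6.10 in iBAT, compared with 32.3% ± 6.20 and 26.7% ± 7.12 in iWAT and 28.4% ± 3.71 and 28.3% ± 4.12 in eWAT. With the length of the longest protein-coding transcript in place of merged exons, the share of Gpat3 was 2.85%, 40.9% and 43.3%. The deposited counts measure RNA, and the activity of the enzymes was not measured.

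**Figure D2:**
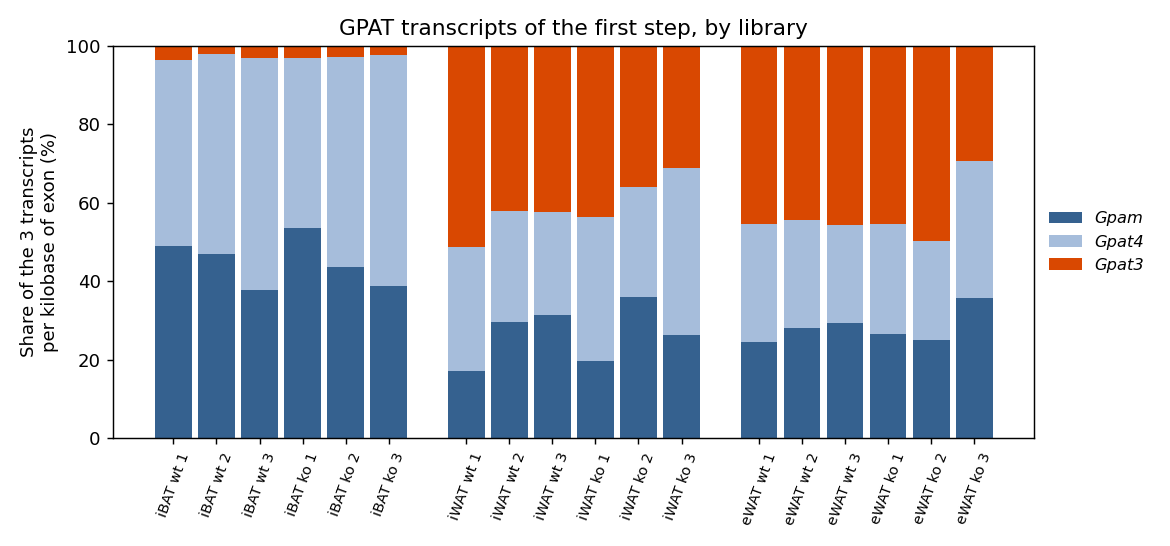
Share of Gpam, Gpat4 and Gpat3 in the summed CPM per kilobase of exon of the 3 GPAT genes (vertical axis, percent, from 0) in each of the 18 libraries. Gpat3 takes 2.12% to 3.63% of the sum in the 6 iBAT libraries and 29.3% to 51.2% in the 12 white libraries.

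Ratios of counts of same-step enzymes in the same library do not depend on how libraries are scaled. The log2 ratio of Gpam to Gpat3 counts was 4.53 to 5.40 in iBAT, whereas it was -0.65 to 0.92 in the iWAT libraries and -0.06 to 1.22 in the eWAT libraries. The mean ratio was 25.0-fold higher in iBAT than in iWAT and 24.2-fold higher than in eWAT (log2 difference 4.64 and 4.59, adjusted p = 0.00779 for each, two-sided exact permutation test of 6 against 6 libraries, adjusted over 18 tests of 6 ratios in 3 contrasts). The ratio of Gpat3 to Gpat4 was 23.5-fold lower in iBAT than in iWAT and 27.9-fold lower than in eWAT (log2 difference -4.56 and -4.80, exact permutation test, adjusted p = 0.00779 for each). The raw p of 0.00216 behind these values is the smallest that 6 against 6 libraries allow. For Gpam against Gpat4, both higher in iBAT, the difference was 0.09 against iWAT and -0.21 against eWAT (adjusted p = 0.874 and 0.440, exact permutation test). Libraries of 1 mouse are paired across tissues, and a test that flips the sign of each mouse's difference called 0 of the 18 ratios, since with 6 mice it cannot go below p = 0.0312 (adjusted p = 0.0938, exact permutation test). In all 6 mice the Gpam to Gpat3 ratio was higher in iBAT than in each white tissue, as follows from the ranges.

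Promoter sequence was at hand from RefSeq (GRCm38.p6) for 6 of the 9 genes, in 9 windows, and the 250 bases before the annotated start are shown for the 2 GPAT genes that moved in opposite directions and for Agpat2, which had the widest fold difference from eWAT among the enzymes higher in iBAT. Capitals mark matches on either strand to the GC box (GGGCGG, in 32.7% of all 32851 promoter windows of this length), to the CCAAT box (CCAAT, 33.8%) or to a sterol element (TCACCCCA, 1.34%). AGGTCA (a nuclear receptor half-site, 14.02%), TCAAGGTCA (0.387%), CACGTG (6.02%), TATAAA (12.4%) and the NRF1 core motif (3.74%) were searched too and are not in these 3 windows. Each run reads 5′ to 3′ on the gene's own strand and ends at the RefSeq start, which for Gpat3 lies inside the longer GENCODE gene given above.
Gpat3 (chr5:100845979-100846228, plus strand): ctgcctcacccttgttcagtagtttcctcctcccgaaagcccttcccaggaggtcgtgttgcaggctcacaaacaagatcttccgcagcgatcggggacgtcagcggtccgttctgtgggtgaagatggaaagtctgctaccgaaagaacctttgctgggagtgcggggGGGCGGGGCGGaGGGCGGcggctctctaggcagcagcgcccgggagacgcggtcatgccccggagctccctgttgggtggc
Agpat2 (chr2:26604418-26604667, minus strand): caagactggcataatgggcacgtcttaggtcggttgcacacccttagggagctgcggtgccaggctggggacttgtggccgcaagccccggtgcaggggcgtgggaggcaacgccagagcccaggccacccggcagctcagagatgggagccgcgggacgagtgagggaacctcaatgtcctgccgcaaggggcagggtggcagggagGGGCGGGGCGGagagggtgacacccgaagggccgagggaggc
Gpam (chr19:55127239-55127488, minus strand): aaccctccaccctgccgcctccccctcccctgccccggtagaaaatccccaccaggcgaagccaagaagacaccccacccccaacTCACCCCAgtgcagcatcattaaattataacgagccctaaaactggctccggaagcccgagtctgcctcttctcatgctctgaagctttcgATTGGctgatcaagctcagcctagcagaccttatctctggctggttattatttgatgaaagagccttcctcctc
The Gpat3 window holds 3 GC boxes and the Agpat2 window 2, in both cases with the run GGGCGGGGCGG in which 2 boxes overlap by 1 base. Gpat3 was lower and Agpat2 higher in iBAT, so this match was shared by genes that differed in direction. The Gpam window, 1 of 2 annotated starts, holds 1 CCAAT box, printed as ATTGG, and 1 sterol element. The window of its other start, not printed, holds 1 GC box and 1 AGGTCA half-site. These matches describe letters only, and binding at them was not measured.

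At the second step both AGPAT genes were higher in brown fat. Agpat2, the AGPAT whose loss causes a form of congenital lipodystrophy, is at chromosome 2, 26593057 to 26604417, minus strand (ENSMUSG00000026922.13). It had 2695, 1800 and 1151 CPM in wild type iBAT and 2645, 2101 and 1309 CPM in knockout iBAT. In iWAT the values were 820, 901 and 133 CPM in wild type mice and 867, 418 and 468 CPM in knockout. In eWAT they were 350, 502 and 287 CPM in wild type mice and 586, 504 and 112 CPM in knockout. Every iBAT library lay above every white library, and the lowest white libraries were eWAT ko replicate 3 and iWAT wt replicate 3. Agpat2 was 3.24-fold higher in iBAT than in iWAT (log2 fold change 1.70 ± 0.44, adjusted p = 0.00345 by edgeR) and 5.0-fold higher than in eWAT (2.32 ± 0.44, adjusted p = 0.000309). Without the 4 libraries with neighbouring tissue the log2 differences were 1.39 and 2.12, and with library totals only they were 0.93 and 1.46. In wild type libraries alone the difference from iWAT was 1.61 and was not called (adjusted p = 0.0773, against 0.000111 to 0.0773 over all 35 alternatives). Within iBAT, Agpat2 was highest in the replicate 1 mice and lowest in the replicate 3 mice of both genotypes. The brown adipocyte sum followed the same order, with 9823 and 11122 CPM in replicate 1 and 6361 and 5889 CPM in replicate 3 of wild type and knockout, and its part in the spread was not tested. Agpat2 overlaps the genes Egfl7 and Gm20532 on the other strand, and without the strand setting known the counts may hold reads of these.

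Agpat3, an AGPAT of the endoplasmic reticulum and Golgi, is at chromosome 10, 78269178 to 78352489, minus strand (ENSMUSG00000001211.15). Its iBAT libraries held 818, 802 and 693 CPM in wild type mice and 835, 712 and 693 CPM in knockout. It ranged from 136 to 278 CPM in iWAT and from 167 to 241 CPM in eWAT, with medians of 252 and 216, so brown and white were separated by more than the range within either. It was 3.34-fold higher in iBAT than in iWAT (log2 1.74 ± 0.16, adjusted p = 1.36e-07 by edgeR) and 3.55-fold higher than in eWAT (1.83 ± 0.16, adjusted p = 5.55e-08). With library totals only the log2 differences were smaller, at 0.958 and 0.959. Per kilobase, Agpat2 held 89.7% ± 2.69 of the sum of both transcripts in iBAT, 88.6% ± 5.55 in iWAT and 84.2% ± 9.48 in eWAT. The log2 ratio of Agpat2 to Agpat3 counts differed by 0.10 between iBAT and iWAT and by 0.60 between iBAT and eWAT (adjusted p = 0.876 and 0.412, exact permutation test), and the tissues overlapped in this ratio. Agpat3 overlaps the gene models n-R5s77, Mir7659, Gm47992 and Gm40709, and the counts may hold reads of these.

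At the third step Lpin1 was higher in brown fat, by less than the genes above, and Lpin2 was not called. Lpin1, the lipin that predominates in adipose tissue and also acts as a transcriptional coactivator, is at chromosome 12, 16535669 to 16610966, minus strand (ENSMUSG00000020593.16). In iBAT it had 919, 825 and 761 CPM in wild type mice and 997, 662 and 761 CPM in knockout. In iWAT it had 580.0, 406 and 115 CPM in wild type mice and 767, 225 and 344 CPM in knockout. In eWAT it had 382, 448 and 326 CPM in wild type mice and 624, 357 and 159 CPM in knockout. The eWAT libraries lay below all iBAT libraries, whereas iWAT ko replicate 1, the library with skeletal muscle genes, stood above 3 of the 6 iBAT libraries. The fold difference was 2.03 against iWAT (log2 1.02 ± 0.37, adjusted p = 0.0268 by edgeR) and 2.15 against eWAT (1.10 ± 0.37, adjusted p = 0.0178). Without the 4 libraries with neighbouring tissue it was 0.88 and 0.94 on the log2 scale (adjusted p = 0.00514 and 0.000582). The call against iWAT was lost without iBAT ko replicate 1 (adjusted p = 0.0554), iWAT ko replicate 2 (0.0635) or iWAT ko replicate 3 (0.0550), and without all libraries of wt replicate 2 (0.0696), ko replicate 2 (0.0739) or wt replicate 3 (0.0601). The call against eWAT was lost without wt replicate 1 (adjusted p = 0.0552). In wild type libraries alone Lpin1 was not called against either white tissue (log2 1.19 and 1.11, adjusted p = 0.0798 and 0.0966). Over 35 alternatives the adjusted p ran from 0.00379 to 0.442 against iWAT and from 0.000582 to 0.466 against eWAT, the highest with library totals only, where the log2 differences were 0.27 and 0.25.

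Lpin2, another lipin, is at chromosome 17, 71182560 to 71249817, plus strand (ENSMUSG00000024052.17). It was low in all 3 tissues, with 10.1 to 20.8 CPM in iBAT, 12.0 to 19.7 CPM in iWAT and 10.6 to 21.3 CPM in eWAT, and the ranges overlapped. The log2 difference of iBAT was -0.14 against iWAT (95% interval -0.58 to 0.30) and 0.00 against eWAT (-0.45 to 0.45), and its sign changed between alternatives. With library totals only it was -0.999 and -0.91, close to the median of all genes there. Per kilobase, Lpin1 held 98.7% ± 0.213 of the sum of Lpin1 and Lpin2 in iBAT, 95.4% ± 4.03 in iWAT and 96.6% ± 1.997 in eWAT. Lpin3, another lipin, is outside this sum and had means of 8.79, 14.6 and 18.6 CPM in iBAT, iWAT and eWAT. The log2 ratio of Lpin1 to Lpin2 counts (Lpin1/Lpin2) was higher in iBAT by 1.41 against iWAT and by 1.21 against eWAT (adjusted p = 0.0325 and 0.00779, exact permutation test), and by 0.92 and 0.95 without the 4 libraries (adjusted p = 0.0357 and 0.0130, exact permutation test). The call of this ratio against iWAT was lost without any single one of the 6 iBAT libraries (adjusted p from 0.0649 to 0.110, exact permutation test).

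At the last step neither DGAT passed the test between any tissues with TMM factors. Dgat1, a DGAT of the endoplasmic reticulum, is at chromosome 15, 76502015 to 76511953, minus strand (ENSMUSG00000022555.12). It had 280 to 398 CPM in iBAT, 149 to 336 CPM in iWAT and 135 to 317 CPM in eWAT, with medians of 345, 289 and 283, and the ranges overlapped. Its log2 difference was 0.37 between iBAT and iWAT (95% interval -0.08 to 0.82, adjusted p = 0.157 by edgeR) and 0.42 between iBAT and eWAT (-0.04 to 0.87, adjusted p = 0.110), whereas with library totals only it was called lower in iBAT, at -0.41 and -0.44 (adjusted p = 0.0279 and 0.0204).

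Dgat2, the DGAT that is unrelated in sequence to Dgat1, is at chromosome 7, 99153658 to 99182719, minus strand (ENSMUSG00000030747.5). In iBAT it had 2423, 3387 and 2372 CPM in wild type mice and 1875, 3136 and 3636 CPM in knockout. In iWAT it had 2521, 2603 and 359 CPM in wild type mice and 2383, 1253 and 1225 CPM in knockout. In eWAT it had 1929, 2448 and 1195 CPM in wild type mice and 2835, 2025.0 and 526 CPM in knockout. The tissues overlapped, and the 2 lowest libraries were iWAT wt replicate 3 and eWAT ko replicate 3. The log2 difference was 0.70 between iBAT and iWAT (95% interval -0.19 to 1.60, adjusted p = 0.173 by edgeR) and 0.62 between iBAT and eWAT (-0.28 to 1.52, adjusted p = 0.228). It was 0.40 and 0.42 without the 4 libraries and -0.02 and -0.21 with library totals only. The interval leaves room for a difference as large as that of Lpin1. Per kilobase, Dgat2 held 88.4% ± 3.73 of the sum of both DGATs in iBAT, 83.9% ± 7.39 in iWAT and 85.9% ± 5.08 in eWAT, and the ratio of Dgat1 to Dgat2 did not pass the test in any of the 3 contrasts (adjusted p from 0.429 to 0.757, exact permutation test).

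**Figure D3:**
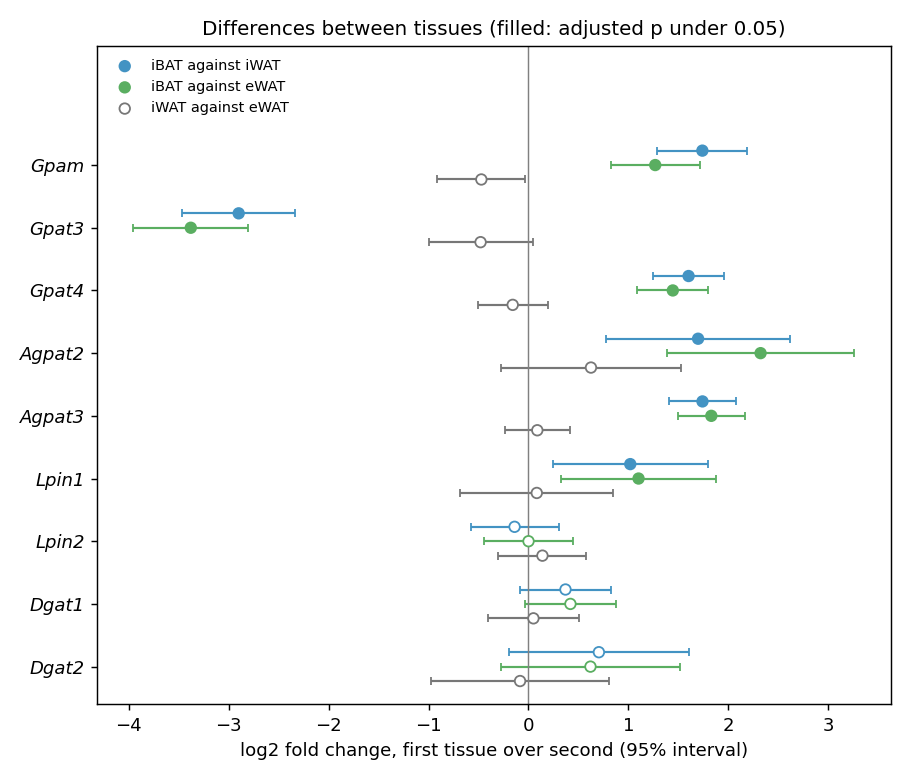
Log2 fold change of each enzyme between tissues (horizontal axis) with its 95% interval, for iBAT against iWAT (blue), iBAT against eWAT (green) and iWAT against eWAT (grey). Filled points passed the adjusted p threshold of 0.05: Gpat3 lies at -2.90 and -3.38, the 5 enzymes higher in iBAT between 1.02 and 2.32, and no grey point is filled, while with library totals only Dgat1 and Dgat2 fall below 0 and the Lpin1 points are not called.

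Ordered per kilobase, Agpat2 (916 ± 307 CPM per kilobase, SD, n = 6) and Dgat2 (910 ± 222) led in iBAT and did not differ beyond their spread. Dgat1 (112 ± 15.8), Agpat3 (97.4 ± 8.55), Lpin1 (84.9 ± 12.5), Gpat4 (84.2 ± 1.52) and Gpam (74.7 ± 19.99) followed within the spread of their neighbours, and Gpat3 (4.71 ± 1.30) and Lpin2 (1.17 ± 0.343) came last. With the longest protein-coding transcript as the length, Lpin1 (147) passed Agpat3 (127). In the white tissues Dgat2 led (559 ± 296 in iWAT and 592 ± 273 in eWAT), followed by Agpat2 (282 ± 145 and 183 ± 82.3) and Dgat1 (86.8 ± 25.0 and 84.0 ± 22.2). Gpat3 then stood among the middle genes with 35.5 ± 11.9 in iWAT and 49.2 ± 14.9 in eWAT, beside Lpin1 with 42.0 ± 24.6 and 39.6 ± 15.8.

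Between the white depots no enzyme passed the test. The log2 difference of iWAT from eWAT was -0.47 for Gpam (95% interval -0.91 to -0.03, adjusted p = 0.164 by edgeR), -0.48 for Gpat3 (-0.999 to 0.04, adjusted p = 0.233) and 0.63 for Agpat2 (-0.27 to 1.52, adjusted p = 0.383). The other 6 lay between -0.16 and 0.14. At an unadjusted p under 0.05 only Gpam passed, by edgeR and by DESeq2, and 0 of the 9 were called by either tool. Of all genes 25.5% and 26.1% passed at this unadjusted p by edgeR and DESeq2, and DESeq2 called 14.4% of them. All 9 genes had overlapping libraries, where 4.62% of all genes did not.

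Within the white depots, the lowest values of several enzymes were in libraries that held neighbouring tissue. In iWAT, wt replicate 3 was the lowest of the 6 libraries for 7 of the 9 enzymes, all but Gpam and Lpin2. In eWAT, ko replicate 3 was the lowest for 6 of the 9, namely Gpat3, Gpat4, Agpat2, Lpin1, Dgat1 and Dgat2. Relative to the tissue median, iWAT wt replicate 3 was at -2.34 on the log2 scale for Dgat2, -2.27 for Agpat2 and -1.70 for Lpin1, and eWAT ko replicate 3 at -1.91, -1.93 and -1.22. Gpam was at -0.22 and -0.19 and Lpin2 at 0.39 and 0.16 in these libraries. These are 2 of the 3 libraries with low adipocyte sums. Macrophage genes (Adgre1, Cd68, Csf1r, Lyz2 and Cd14) summed to 1352 CPM in iWAT wt replicate 3 and 1217 CPM in iWAT ko replicate 2, 196 to 454 CPM in the other iWAT libraries and 127 CPM in eWAT ko replicate 3. The sum of 4 endothelial genes (Pecam1, Cdh5, Tek and Kdr) was also lowest in the same libraries, with 475 CPM in iWAT wt replicate 3 beside 597 to 736 CPM in the other iWAT libraries and 401 CPM in eWAT ko replicate 3 beside 751 to 856 CPM in the other eWAT libraries. The part of other cells in these low values was not tested.

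**Figure D4:**
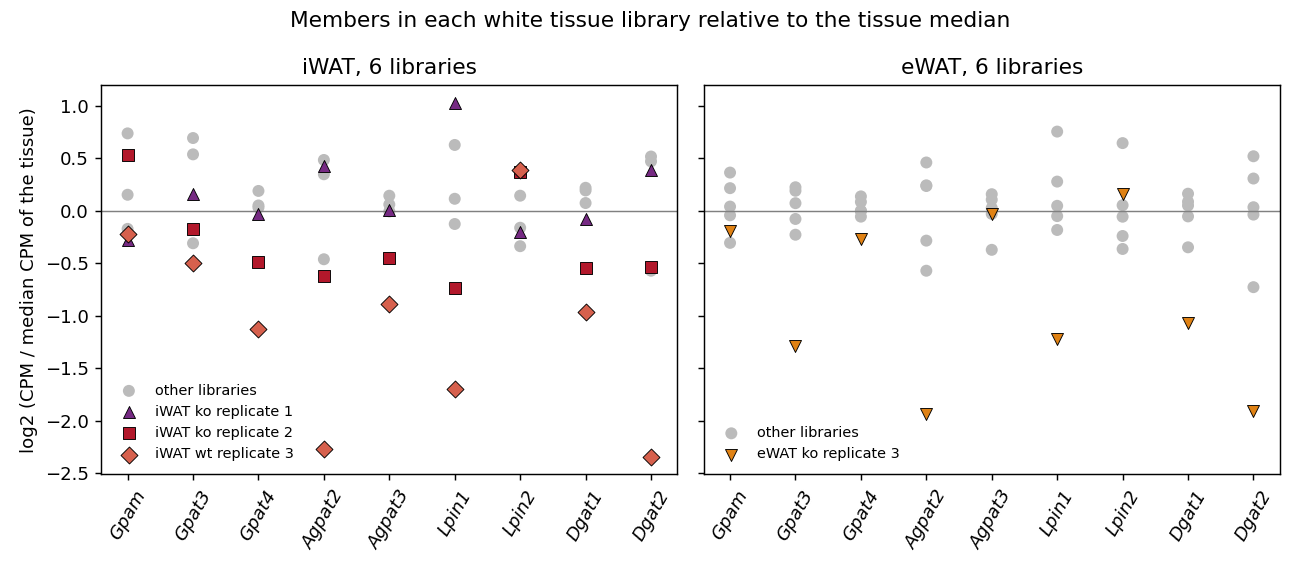
Log2 ratio of each enzyme's CPM to the median of its tissue (vertical axis) in the 6 iWAT libraries (left) and 6 eWAT libraries (right). Coloured symbols are the 4 libraries with lymph node, muscle or epididymis genes and grey points the others. The diamonds of iWAT wt replicate 3 reach -2.34 for Dgat2 and the eWAT ko replicate 3 triangles -1.93 for Agpat2, whereas Gpam and Lpin2 of both lie between -0.22 and 0.39.

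Knockout of Gm15551 was not followed by a change in any of the 9 enzymes that passed the test. The count was 0 of 9 across tissues, in iBAT, in iWAT, in eWAT and for the interaction of genotype with tissue, by edgeR and by DESeq2, and 0 of 9 had an unadjusted p under 0.05 by either tool. Of all genes, 0.00534% were called across tissues and in eWAT (the single gene Gm15551 in each) and 0% in iBAT, in iWAT and for the interaction by edgeR, and 0.0214% across tissues, 0.0694% in iBAT, 0.0214% in iWAT, 0.0534% in eWAT and 0% for the interaction by DESeq2. At an unadjusted p under 0.05 the shares of all genes by edgeR were 2.19% across tissues, 1.27% in iBAT, 2.22% in iWAT, 4.35% in eWAT and 1.41% for the interaction, and by DESeq2 they were 2.54%, 1.23%, 2.72%, 4.47% and 1.68%. Within single tissues the edgeR fit did not call Gm15551 itself in iBAT (adjusted p = 0.191) or iWAT (adjusted p = 0.0551), whereas DESeq2 called it in both (adjusted p = 1.41e-05 and 2.17e-07). The edgeR counts of 0 in these tissues therefore cannot be read as no change in the enzymes. The 95% intervals in iBAT and iWAT were narrowest for Agpat3 (-0.54 to 0.45 and -0.42 to 0.57). For Dgat2 they were wider (-1.28 to 1.44 and -1.54 to 1.19). Across tissues the log2 differences ran from -0.25 (Gpat3) to 0.07 (Lpin1), with a median of 0.01. The widest single difference was that of Gpat3 in iWAT, at -0.43 (95% interval -1.21 to 0.35). In that tissue it had a mean of 143 ± 54.7 CPM in wild type mice and 106 ± 18.1 CPM in knockout (SD, n = 3 each), and the libraries overlapped. Over all 9 genes and 3 tissues the libraries of the genotypes overlapped in 27 of 27 cases, where 4.94%, 4.92% and 5.25% of all genes were separated in iBAT, iWAT and eWAT.

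The intervals across tissues come from a fit that counts the 3 libraries of a mouse separately, with 3 mice per genotype, and may be too narrow. With counts summed per mouse (edgeR) and with the mouse as a random effect (limma voom) 0 of the 9 were called, and Gpat3 was at -0.18 and -0.32. Gm15551 itself was not called with summed counts (adjusted p = 1 by edgeR), so that a count of 0 in this fit cannot be read as no change in the enzymes. With the random effect Gm15551 was called (adjusted p = 0.00812 by limma). In the fit over libraries the 95% interval was narrowest for Agpat3 (-0.25 to 0.28) and Gpat4 (-0.28 to 0.29). It was widest for Agpat2 (-0.70 to 0.76) and Dgat2 (-0.78 to 0.68). In iBAT, Gpat4 had 562 ± 15.6 CPM in wild type mice and 563 ± 3.97 CPM in knockout (SD, n = 3 each), and Agpat3 had 771 ± 68.4 and 747 ± 77.2 CPM. The interaction of genotype with tissue had unadjusted p-values from 0.671 to 0.976 over the 9 genes (edgeR), with an adjusted p of 1 for each.

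**Figure D5:**
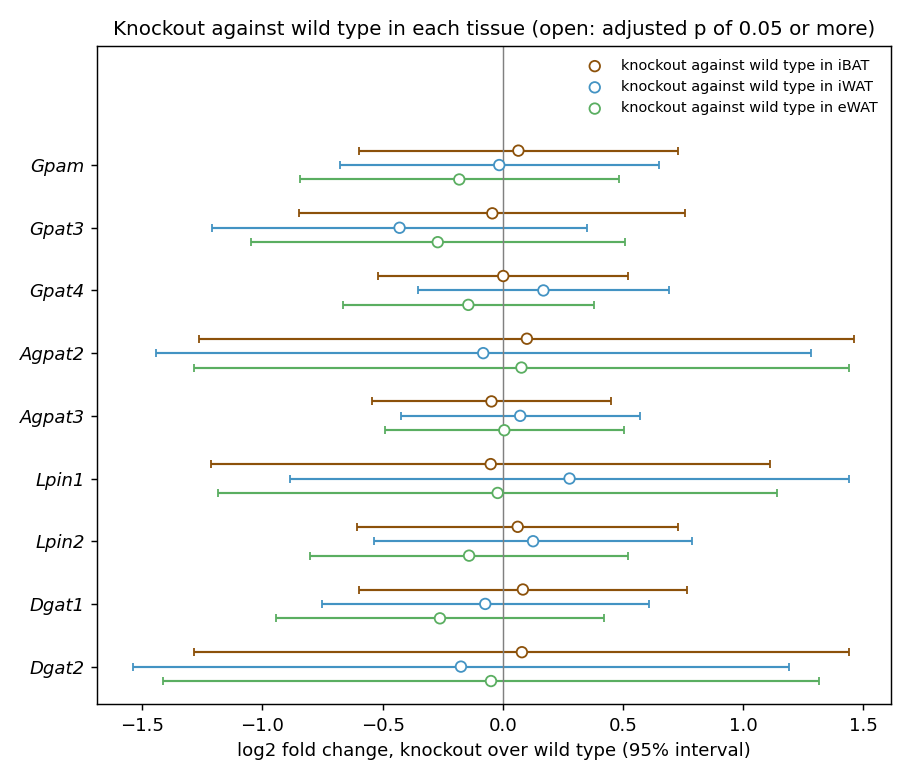
Log2 fold change of each enzyme between knockout and wild type (horizontal axis) with its 95% interval in iBAT, iWAT and eWAT, 3 libraries of each genotype per tissue. All 27 points are open, since none passed the adjusted p threshold, and all 27 intervals span 0.

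Other genes around the pathway were examined in lists, whose counts are to be read against the shares of all genes called, 24.0% higher and 30.3% lower in iBAT against iWAT, 24.4% higher and 30.2% lower against eWAT, and 10.2% either way between iWAT and eWAT. Of 10 other isoforms and genes of the monoacylglycerol route, 8 were tested. Against iWAT 2 were higher and 3 lower in iBAT, and against eWAT 1 was higher and 3 lower. These 5 and 4 of 8 genes are near the 54.3% and 54.6% of all genes called in either direction. Agpat1, another AGPAT, was higher by 0.97 ± 0.13 and 0.90 ± 0.13 on the log2 scale (adjusted p = 9.09e-06 and 1.63e-05 by edgeR). Agpat4 was lower (-1.77 and -1.46), as were the third lipin, Lpin3 (-0.73 and -1.09), and Mogat1, an acyltransferase for monoacylglycerol (-1.04 and -1.64). With library totals only, Agpat1 was not called (0.17 and 0.02), and the call of Lpin3 against iWAT was lost in 7 of 24 fits without a library or mouse.

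Among genes that supply glycerol 3-phosphate, Gpd1 and Gk were higher in iBAT than in both white tissues. Of 6 genes 5 were tested, with 2 higher in iBAT than in iWAT, 3 higher than in eWAT and 0 lower in either contrast. Gpd1, which makes glycerol 3-phosphate from a glycolytic intermediate, had 8101 to 14793 CPM in iBAT, 400.3 to 2611 CPM in iWAT and 183 to 931 CPM in eWAT. It was 6.95-fold higher than in iWAT and 18.6-fold higher than in eWAT (log2 2.80 ± 0.43 and 4.22 ± 0.46, adjusted p = 4.34e-05 and 7.77e-07 by edgeR). Gk, which phosphorylates free glycerol, had 80.5 to 374 CPM in iBAT and 6.85 to 17.5 CPM in iWAT. In eWAT it had 194 CPM in ko replicate 3, the library with epididymis genes, and 5.97 to 42.9 CPM in the others. Its log2 difference was 4.28 against iWAT and 2.39 against eWAT, the latter 3.96 without that library (adjusted p from 2.43e-05 to 0.12 over the alternatives, the highest with library totals only). Pck1, the cytosolic enzyme of glyceroneogenesis, was higher than in eWAT by 1.96 ± 0.42 (adjusted p = 0.000804), and its difference of 0.69 from iWAT, which turned to -0.05 with library totals only, was not called.

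Of the phospholipid branch, which draws on phosphatidic acid and diacylglycerol, 4 of 9 genes were higher and 2 lower against iWAT, and 3 were higher and 4 lower against eWAT. Pcyt2, of phosphatidylethanolamine synthesis, was higher by 1.57 and 1.84, and Cept1 and Pcyt1b were lower in both contrasts (-0.53 and -0.31 for Cept1, -2.0 and -1.61 for Pcyt1b). Pcyt1b was barely detected, with 1 to 7 counts in the iBAT libraries and 5 to 42 in the white ones. Of 5 genes for droplet formation and the control of lipin, 4 were tested and 1 was called, Ctdnep1, the phosphatase that acts on lipins, which was higher by 0.73 ± 0.09 and 0.78 ± 0.09 (adjusted p = 2.66e-06 and 1.10e-06 by edgeR) and at -0.08 and -0.09 with library totals only. Of 6 regulators, 4 were higher in both contrasts and 0 lower. Mlxipl, the carbohydrate response factor ChREBP, was higher by 1.90 ± 0.28 and 2.20 ± 0.28 and Ppargc1a by 3.34 ± 0.54 and 3.91 ± 0.56, and Pparg and Insig1 were the others. Pparg turned to -0.13 against eWAT with library totals only, and the calls of Pparg and Insig1 against iWAT were lost in 2 and 11 of 24 such fits. Between iWAT and eWAT, Gpd1 was higher (1.42, adjusted p = 0.0369) and Selenoi lower (-0.47, adjusted p = 0.0307) among the 32 genes of the 5 lists that were tested, and these calls were lost in 14 and 11 of 24 such fits. No gene of these lists was called between genotypes.

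Within libraries the enzymes moved together to different degrees. After the tissue means were taken out, Pearson's r of log2 CPM over the 18 libraries, which come 3 from each mouse and differ in depth, was highest for Agpat2 and Lpin1 (0.89), Agpat2 and Dgat1 (0.88), Gpat4 and Agpat3 (0.88) and Agpat2 and Dgat2 (0.86). The libraries iWAT wt replicate 3 and eWAT ko replicate 3, low for most of these genes and for adipocyte genes, are among the 18, and their part in these values was not tested. For Lpin2 it ran from -0.49 with Dgat2 to 0.18 with Gpam, and for Gpam it ran from 0.07 with Lpin1 to 0.44 with Agpat3. With the tissue means left in, Gpat3 had r = -0.88 with Agpat3 and -0.75 with Gpam. With the means taken out these values were 0.49 and 0.42, so the negative ones reflect the difference between brown and white tissue. Among 15133 protein-coding genes tested, the genes most like Gpat3 over the 18 libraries were Mst1r, Fam110c and Rgs7bp (r = 0.983, 0.981 and 0.981), and those most like Gpat4 were Nampt (0.991), Akt1s1 (0.990) and Mrpl17 (0.989). Agpat3 was closest to Isca1 (0.996), Lonp1 (0.995) and Etfrf1 (0.994), and Agpat2 to Spryd7 (0.987), Rhoq (0.986) and Ppp2r5a (0.986). With tissue means removed, Mogat1 was the second closest gene to Gpat3 (r = 0.93, after Btd with 0.94) and Cebpa the third closest to Dgat2 (0.95, after Mmp28 with 0.96 and Nfic with 0.95). These correlations describe 18 libraries and carry no test.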

How the data were processed

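Paired-end poly-A libraries were made with the NEBNext Ultra II RNA kit. Per the study's methods, the authors used cutadapt for quality filtering and salmon for quantification, with GENCODE M22 or M22 plus RNAcentral 5 as reference (build GRCm38). Which reference applies, whether counting used strand and how transcripts were summed to genes is not given in the sources used here. The authors deposited estimated counts per gene, whole numbers in 1 table of 54347 rows and 18 columns. Here, edgeR 4.0.16 in R 4.3.3 was run with TMM factors (0.617 to 0.744 in iBAT, 1.06 to 1.44 in white tissue), filterByExpr by group, a quasi-likelihood F-test and Benjamini-Hochberg adjustment over 18728 genes at 0.05. Tissues and the genotype across tissues were fitted with tissue and genotype as terms, and the genotype within tissues and the interaction with 1 mean per group. The scripts were tested on simulated data. Ratios of same-step enzymes were tested by exact permutation. A count of 0 allows up to 3 counts, or 0.0728 to 0.235 CPM, for counting error only. Lengths came from GENCODE M21, and motifs from RefSeq windows (250 bases upstream). The named genes were the 9 enzymes, the fixed pathway and marker lists, Gm15551 and, for each enzyme, the 3 protein-coding genes with the highest correlation.

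The 9 enzymes and the lists were chosen with earlier results of these data known. The mouse labels tie the libraries of 1 mouse across tissues. Their deviations from the group means correlated at -0.165 to 0.326. Alternatives were DESeq2 1.42.0, other scalings and filters, the mouse as a block, wild type libraries alone, only the tissues compared and leaving out libraries and mice. A single gene of the marker lists is not reported here and was left out of its sum.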

Additional observations from a re-analysis of the deposited data

Results flagged for a closer look

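Among 45 comparisons of the 9 enzymes and 6 same-step ratios in each tissue, 2 had 1 library beyond Dixon's critical value for 6 libraries, where chance gives about 1 in 20, or 2.25. In eWAT ko replicate 3, the library with epididymis genes, the log2 ratio of Gpam to Gpat3 counts was 1.22 with the nearest library at 0.30 (gap over range 0.721). The log2 ratio of Gpat3 to Gpat4 was -1.18 there, with the nearest library at -0.34 (gap over range 0.680). Both values share the Gpat3 count of that library.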

How the results depend on the processing

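Of the 35 alternatives for the tissue contrasts, library totals without TMM changed the most results. With them the median of all genes moved from -0.15 to -0.95 against iWAT and from -0.17 to -1.04 against eWAT, and the calls were 4 higher and 3 lower against iWAT and 3 higher and 3 lower against eWAT, beside 76.0% and 78.7% of all genes called. Lpin2 and Dgat1 were called lower there and Lpin1 and, against eWAT, Gpam were not called. Signs turned with library totals for Dgat1 (-0.41 and -0.44), Dgat2 (-0.023 and -0.21), Lpin2 against eWAT (-0.91), Pck1 against iWAT (-0.054), Ctdnep1 (-0.078 and -0.091) and Pparg against eWAT (-0.13). In wild type libraries alone, 3 enzymes were called higher against iWAT, beside 37.8% of all genes called in either direction. Agpat2 and Lpin1 were lost there, and Lpin1 was lost against eWAT too. This fit holds 3 libraries per tissue, iWAT wt replicate 3 among them, and the part of either in the lost calls was not tested. Lpin2, near 0, was at 0.017 against iWAT without the 4 libraries with neighbouring tissue, 0.014 without the wt replicate 3 mouse and between -0.32 and 0.01 without single libraries or mice. Against eWAT it was at -0.11 with upper-quartile factors, -0.041 with no filter, -0.089 with at least 10 counts in every library, -0.10 in wild type libraries, -0.050 and -0.0026 without the replicate 2 mouse of wt and of ko, and -0.14 to 0.16 over all fits without a library or mouse. The counts were 4 to 5 higher and 1 lower without single libraries or mice, 0 between the white tissues in every setting and 0 between genotypes in every setting. With the mouse as a replicate block no tissue call of the enzymes changed. Mice of the same number in both genotypes have neighbouring labels, which do not say whether they share a litter, and their deviations correlated at -0.465 to 0.551, and with the number as a replicate block 0 were called. For the ratios, the pairing by mouse (sign flips) gave 0 calls in place of 6, since 6 mice cannot go below p = 0.0312 (exact permutation test). Ratio calls were 5 to 6 without single libraries, and the Lpin1 to Lpin2 ratio against iWAT was lost in 6 of 18 of these. Gpat3, Gpat4 and Agpat3 kept their calls in both tissue contrasts under all 35 alternatives.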
